A study of Mus musculus with 8 samples.

Results

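The proteasome genes are those whose name on the array starts with Psma, Psmb, Psmc, Psmd, Psme, Psmf or Psmg and a number. This rule matched 49 of 29924 gene names. One of them, Psmc3ip, is a meiotic recombination factor that shares only the letters and is given apart. Of the other genes, Psma8 and Psmb11, the testis and thymus forms of a core subunit, were at the floor of 20 relative units (RU) on all 8 arrays and could not be tested. The remaining 46 genes are described here, and each was well above background on all 8 arrays. They comprise 14 constitutive core subunits, 17 cap subunits, 5 genes of the immunoproteasome, 3 cap and 4 core assembly chaperones, and 3 genes for other activators and an inhibitor.

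The proteasome degrades proteins tagged with ubiquitin. Its barrel-shaped core is built from alpha rings, which control entry, and beta rings, which carry the proteolytic sites, and a cap with a ring of ATPases unfolds the substrate and feeds it in. In lymphocytes much of the core carries the inducible catalytic subunits LMP7 (Psmb8), LMP2 (Psmb9) and MECL-1 (Psmb10) in place of beta5 (Psmb5), beta1 (Psmb6) and beta2 (Psmb7). Together with the PA28 activator (Psme1 and Psme2) these make up the immunoproteasome, which interferon gamma induces and which generates many of the peptides presented on MHC class I.

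The arrays hold RNA of sorted T helper cells from peripheral lymph nodes (pLN), namely naïve CD4, TFH, Treg and TFR cells, of B6.Cg-Foxp3<tm1Mal> mice, whose Foxp3 expressing cells carry EGFP. All animals, those that gave the naïve and Treg cells included, had been immunized s.c. with KLH and alum. Each cell type has 1 array of d12 and 1 of d25 after immunization, from pools of 8 to 15 mice of mixed sex aged 8 to 14 weeks, with 25 ng of RNA per array. Naïve cells were sorted as GFP-PD1lo GL7-, TFH as GFP-PD1hi GL7+, Treg as GFP+PD1lo GL7- and TFR as GFP+PD1hi cells with or without GL7, so that the TFR gate was wider than the TFH gate. A cell type therefore has 2 arrays that differ in day, with no replicate pools of the same cell type and day. The p-values measure how far arrays depart from a day effect common to all cell types. That spread mixes pools, slides and day effects particular to a cell type, which cannot be told apart. All d12 arrays shared slide 1, the d25 arrays of naïve and TFH cells slide 2 and those of Treg and TFR cells slide 3.

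Of 11 markers of the sorted cells, Foxp3 and Cxcr5 matched the sort, while Ikzf2 did not separate TFH from Treg cells. Ikzf2 was at 10506 and 10814 RU in TFH and 9925 and 11103 RU in Treg cells. It was at 22902 and 28617 RU in TFR and 81 and 145 RU in naïve cells. Cxcr5 was at 182426 and 237465 RU in TFH, 35322 and 35810 RU in TFR, and 1400 to 4384 RU in naïve and Treg cells. Foxp3, which defines regulatory T cells, was between 37266 and 49262 RU in Treg and TFR cells and between 66 and 358 RU in naïve and TFH cells. One array stood apart for B cell markers. The summed level of 8 B cell genes was 16043 RU in TFH cells at d25 and between 5483 and 10062 RU on the other 7 arrays. Pax5, which defines B cells, was at the floor on all 8 arrays. The counts for TFH cells are therefore also given without that array. Genes of proliferation also moved with the follicular state. Their summed level over 10 genes was between 2263 and 3103 RU in naïve, between 14876 and 22200 RU in TFH, between 6212 and 6989 RU in Treg, and between 37541 and 54863 RU in TFR cells. The summed level of 2 CD8 T cell genes was also lower in follicular cells, between 2114 and 3174 RU in TFH and between 2110 and 2235 RU in TFR cells against 4957 to 5118 RU in naïve and 4208 to 4565 RU in Treg cells. Of both genes, 1 was called lower in TFH and 2 in TFR cells, against 25.6% and 20.9% of all genes tested. The part of these lists in the results below was not tested. In sorted bulk samples, fewer cells of a type and less RNA per cell cannot be told apart.

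Proteasome genes differed little between follicular cells and the cells outside the follicular gate. Between TFH and naïve cells, 46 proteasome genes had a median absolute difference of 0.25 on the log2 scale, compared with 0.44 for all 15764 genes tested. None of the 46 reached 1, a 2-fold difference, whereas 22.4% of all genes did. Between TFR and Treg cells the median absolute difference was 0.19 for proteasome genes and 0.38 for all genes, and 1 proteasome gene, Psme4, exceeded 1 against 17.6% of all genes. An absolute difference of at most 0.5 was found for 45 of 46 proteasome genes in TFH and for 44 of 46 in TFR cells, compared with 54.8% and 60.6% of all genes. Among genes with a mean signal of 10000 RU or more the gap was smaller, with a median absolute difference of 0.24 for 33 proteasome genes and 0.30 for all 3554 genes in TFH cells, and of 0.175 and 0.232 in TFR cells.

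**Figure D1:**
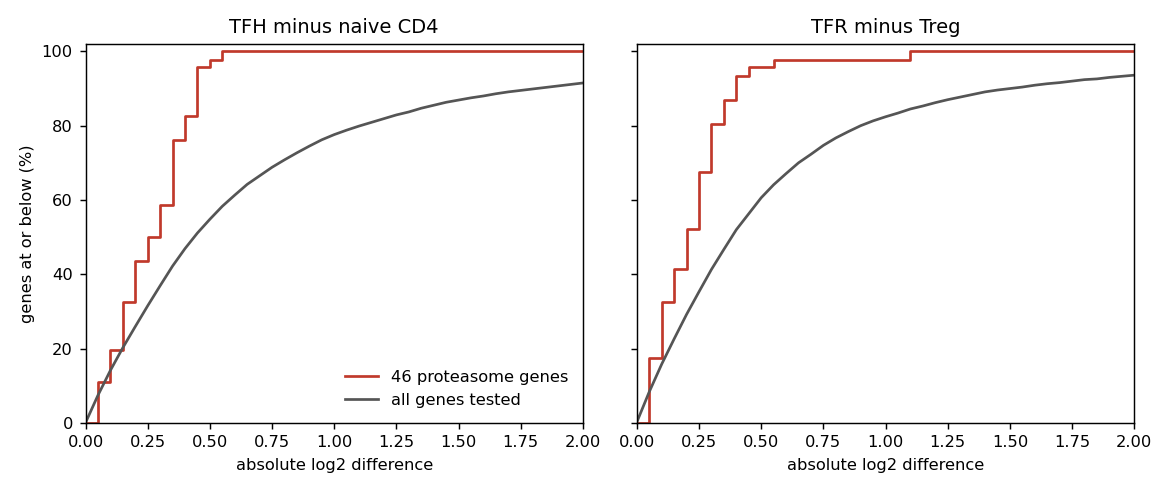
The share of genes (%) whose absolute log2 difference is at or below the value on the x axis, for 46 proteasome genes (red) and all 15764 genes tested (grey), in TFH minus naïve CD4 (left) and TFR minus Treg cells (right). In both panels the red line lies above the grey line and reaches 97.8% and 95.7% at 0.5.

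Within that narrow range, most proteasome genes were measured higher in TFH than in naïve cells. A gene was called at a limma adjusted p below 0.05. By this rule 14 of 46 proteasome genes (30.4%) were called, 13 higher and 1 lower, against 46.5% of all genes tested. The share called higher was 28.3% for proteasome genes and 20.9% for all genes, and the share called lower 2.17% and 25.6%. The median log2 difference was 0.18 for proteasome genes and -0.072 for all genes. Many of the probes were bright, and among the 33 proteasome genes with a mean signal of 10000 RU or more 30.3% were called higher, compared with 21.0% of all 3554 genes as bright. The 13 genes rose 1.24- to 1.37-fold, and all of them were higher in TFH cells at both days, by 0.21 to 0.46 at d12 and by 0.31 to 0.55 at d25 on the log2 scale. At each day these compare arrays of 1 slide. In TFR cells, 5 of 46 genes (10.9%) were called against Treg cells, 2 higher and 3 lower, while the calls among all genes came to 39.6%, 18.7% higher and 20.9% lower. There the median difference was 0.066 for proteasome genes and -0.077 for all genes.

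Without the d25 TFH array, 4 genes were called higher in TFH cells and 2 lower, with a median difference of 0.17, and without either naïve array none was called. The calls among all 15764 genes were then 6478 without the d25 TFH array and 4309 and 4632 without a naïve array, compared with 7332 from all arrays. When arrays were scaled by percentile only, with no quantile normalization, limma called 2 genes higher and 3 lower in TFH cells, with a median difference of 0.053 for proteasome genes and of -0.132 for all genes, of which 3100 were called higher and 4639 lower.

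**Figure D2:**
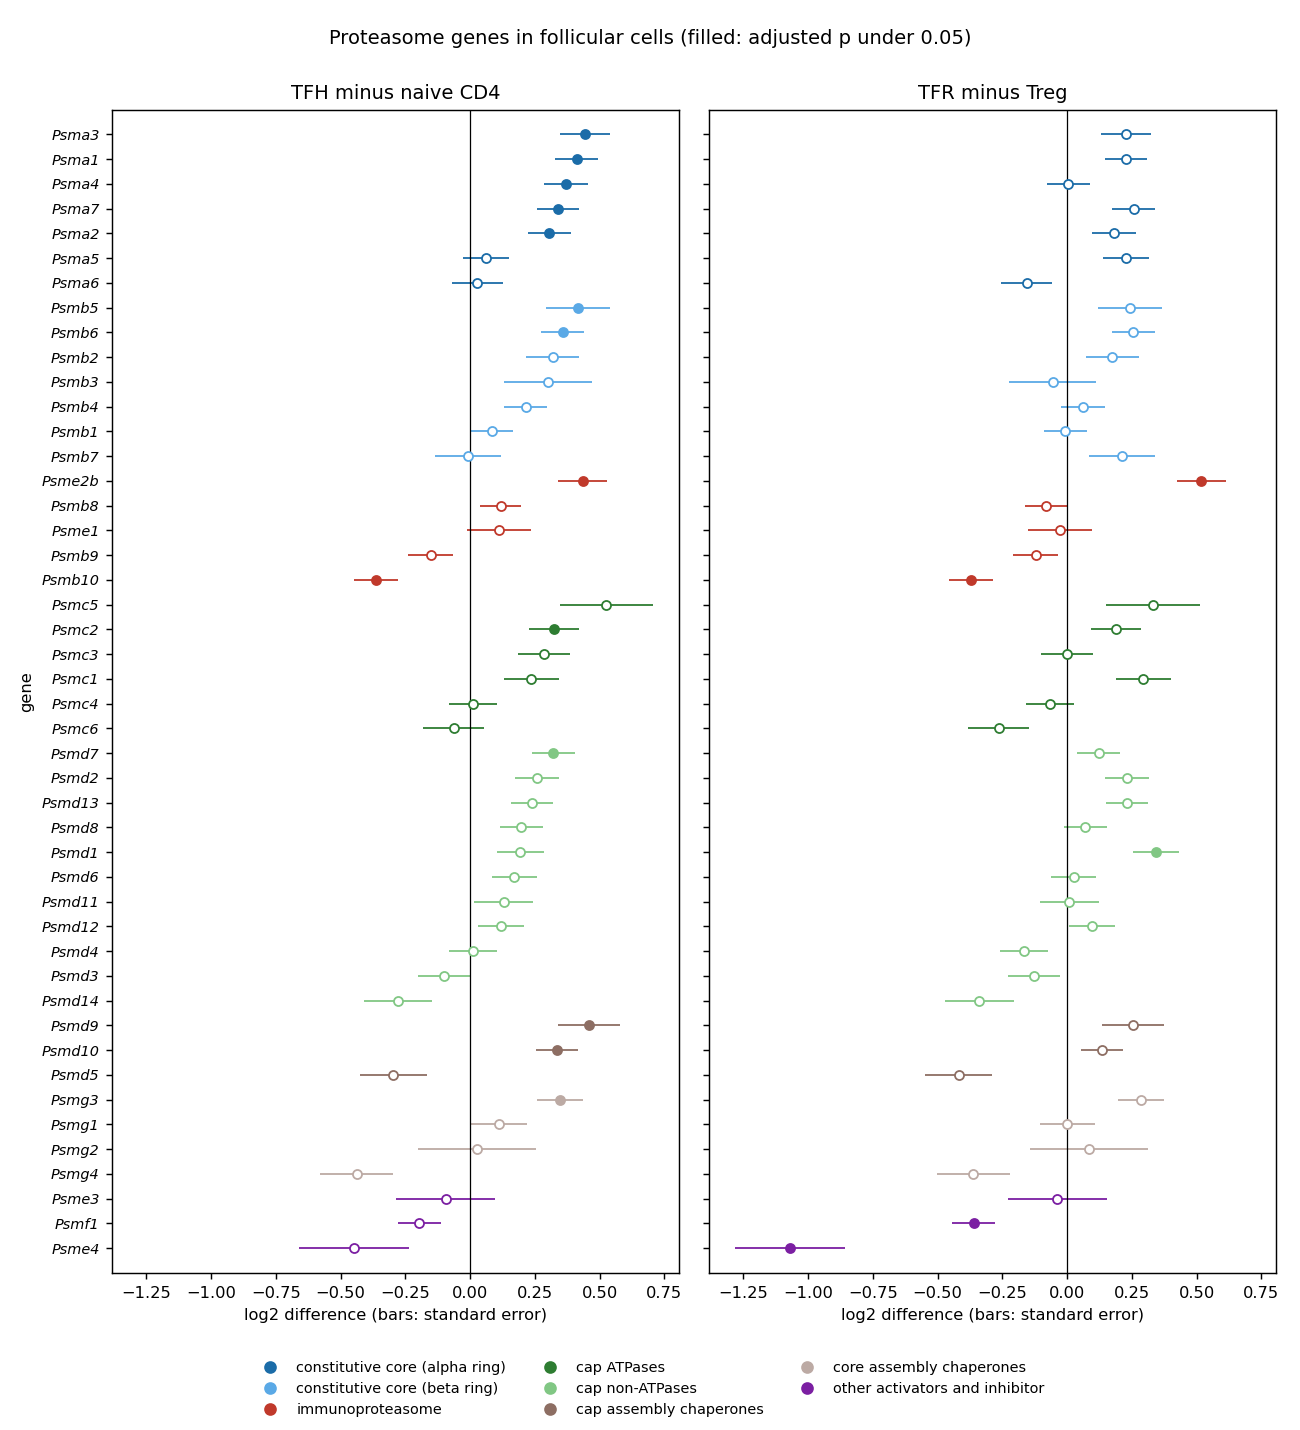
Log2 difference (x axis) of each of 46 proteasome genes in TFH minus naïve CD4 (left) and TFR minus Treg cells (right), with the standard error as bars. Colors mark the class, filled symbols an adjusted p below 0.05, and Psma3 of the alpha ring (0.44 and 0.23) sits to the right of 0 in both panels while Psmb10 (-0.36 and -0.37) sits to the left.

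Of the 14 genes of the constitutive core, 7 rose in TFH cells. In all, 13 were measured higher than in naïve cells, with a median difference of 0.31. The alpha ring contributed 5 of these 7. Psma3 had the largest difference of them, with 97943 and 99776 RU in naïve cells at d12 and d25, 123519 and 145980 RU in TFH, 107839 and 109383 RU in Treg, and 120648 and 133777 RU in TFR cells. Both TFH arrays lay above both naïve arrays, and both TFR arrays above both Treg arrays. The rise in TFH cells was 0.44 ± 0.097 (SE) on the log2 scale with an adjusted p of 0.019, and in TFR cells 0.23 ± 0.097 with an adjusted p of 0.125, which was not called. Psma1 (0.41), Psma4 (0.37), Psma7 (0.34) and Psma2 (0.31) also rose in TFH cells, whereas Psma5 (0.061) and Psma6 (0.027) were not called. None of the 14 core genes was called between TFR and Treg cells, against 39.6% of all genes. There 11 (78.6%) were measured higher, against 43.2% of all genes. Their median difference was 0.20, with 4 genes at an unadjusted limma p below 0.05. Without quantile normalization the core median in TFH cells fell to 0.042, with 8 of 14 genes higher and 1, Psma4, called. Without the d25 TFH array it was 0.28, with 13 of 14 genes higher and 2 called.

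In the beta ring, the constitutive catalytic subunits Psmb5 and Psmb6 were called higher in TFH cells, though both calls depended on the processing. Psmb5, the chymotrypsin-like subunit that LMP7 replaces, was at 114491 and 116884 RU in naïve cells at d12 and d25, at 141961 and 168070 RU in TFH, at 121338 and 111496 RU in Treg, and at 144077 and 131343 RU in TFR cells. Its 2 groups did not overlap in either comparison. The difference was 0.42 ± 0.12 (SE) in TFH cells with an adjusted p of 0.0461, and 0.24 ± 0.12 in TFR cells with an adjusted p of 0.182. A second probe gave 0.44 and 0.23. Psmb6, the caspase-like subunit that LMP2 replaces, was at 81536 and 76376 RU in naïve, at 100587 and 101526 RU in TFH, at 84710 and 84628 RU in Treg, and at 104556 and 97736 RU in TFR cells. The follicular arrays were again above those of the progenitors. The difference was 0.36 ± 0.084 in TFH cells with an adjusted p of 0.0232. In TFR cells it was 0.26 ± 0.084 with an adjusted p of 0.0656, which just missed the threshold. The TFH calls of Psmb5 and Psmb6 were lost without quantile normalization and with TFH and naïve arrays alone. That of Psmb5 was also lost with no replicate block and without a filter on dim probes, and that of Psmb6 with the slide as a block. Over 20 alternatives the TFH difference ranged from 0.074 to 0.577 for Psmb5 and from 0.121 to 0.396 for Psmb6. Psmb7, the trypsin-like subunit that MECL-1 replaces, was at a similar level in naïve and TFH cells. It was at 12053 and 13705 RU in naïve, at 11786 and 13835 RU in TFH, at 12830 and 11560 RU in Treg, and at 14356 and 13871 RU in TFR cells. Its difference was -0.0094 (95% interval -0.34 to 0.32) in TFH and 0.21 (-0.12 to 0.54) in TFR cells. The structural subunits Psmb1 to Psmb4 were measured 0.085 to 0.32 higher in TFH cells, and none of them was called.

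Of the inducible catalytic subunits, only Psmb10 was called. It was lower in both follicular cell types, with 87558 and 85270 RU in naïve cells at d12 and d25, 69479 and 64915 RU in TFH, 93331 and 97059 RU in Treg, and 73084 and 73954 RU in TFR cells. All 4 follicular arrays lay below all 4 progenitor arrays. Psmb10 fell by 0.36 on the log2 scale (SE 0.086, adjusted p = 0.0234) in TFH cells and by 0.37 (SE 0.086, adjusted p = 0.026) in TFR cells. It remained negative, between -0.56 and -0.31 in TFH and between -0.42 and -0.32 in TFR cells, under all 20 alternatives that refit the data, but missed the threshold under 6 and 7 of them. In TFH cells these were the fit of both cell types alone and those without either naïve array, the d25 TFH array or either TFR array. In TFR cells they were the fit of both cell types alone and those without either naïve, Treg or TFR array. Psmb9 was at 93729 and 98358 RU in naïve, at 86868 and 86027 RU in TFH, at 91908 and 102822 RU in Treg, and at 86606 and 92219 RU in TFR cells. Its difference was -0.15 (95% interval -0.38 to 0.073) in TFH and -0.12 (-0.35 to 0.10) in TFR cells, and neither was called. Without quantile normalization Psmb9 was called lower in TFH cells. Psmb8 was at 110348 and 104208 RU in naïve, at 124001 and 109081 RU in TFH, at 134502 and 122734 RU in Treg, and at 127834 and 115226 RU in TFR cells. Its difference was 0.12 (-0.091 to 0.33) in TFH and -0.082 (-0.29 to 0.13) in TFR cells.

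Set beside its counterpart, each inducible subunit changed less upward or more downward. The change of Psmb5 exceeded that of Psmb8 by 0.30 in TFH and by 0.32 in TFR cells on the log2 scale. The change of Psmb6 exceeded that of Psmb9 by 0.51 and 0.38, and that of Psmb7 exceeded that of Psmb10 by 0.35 and 0.58. The sign was the same at both days for all 3 pairs in both cell types, with single-day values between 0.14 and 0.66. These differences of changes are descriptions and were not tested. They concern the change of each gene alone, since signals of different probes give no ratio of the subunits.

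**Figure D3:**
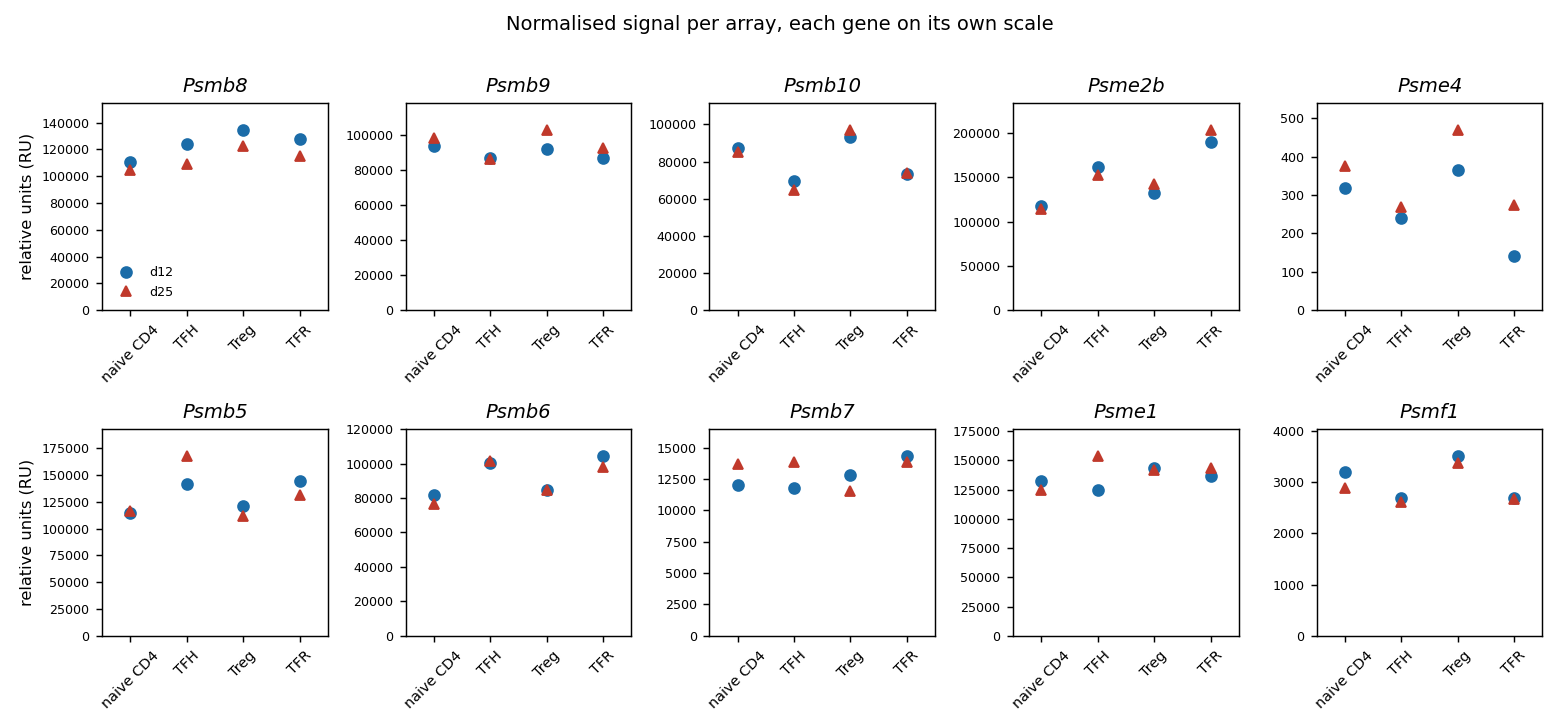
Normalised signal in RU (y axis, from 0, a separate scale for each gene) on the arrays of d12 (circles) and d25 (triangles) for 4 cell types. Psmb10 is lower in TFH (64915 to 69479 RU) and TFR cells (73084 to 73954 RU) than in naïve and Treg cells (85270 to 97059 RU), and Psmb6 is higher in both.

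Related subunits have related sequences, and the array probes of Psmb8 and Psmb5 are shown because they cover corresponding stretches. Capitals mark the bases that both share in the ungapped alignment, 31 of 50 overlapping bases (62.0%). The Psmb8 probe lies at chr17:34337771-34337830 and this Psmb5 probe, the second of 2, at chr14:55233161-55233220 of the build NCBI37.
Psmb8: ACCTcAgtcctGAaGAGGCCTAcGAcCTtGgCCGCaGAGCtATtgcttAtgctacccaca
Psmb5: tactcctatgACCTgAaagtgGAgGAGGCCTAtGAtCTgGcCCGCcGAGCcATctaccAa
The measured changes in TFH cells were 0.12 for Psmb8 and 0.44 for this probe of Psmb5, and the gap between them was not tested. Whether either transcript contributed to the signal of the other probe was not tested.

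The PA28 activator gave mixed signals. Psme1, its alpha subunit, was at 132242 and 124360 RU in naïve, at 124624 and 153920 RU in TFH, at 143709 and 141506 RU in Treg, and at 136475 and 143393 RU in TFR cells. Its groups overlapped, with differences of 0.11 ± 0.12 (SE) in TFH and -0.028 ± 0.12 in TFR cells. The array names no probe for Psme2, the beta subunit. It names 3 for Psme2b, a near-identical copy, so that the 2 genes cannot be told apart. The brightest of these probes was at 117827 and 114699 RU in naïve, at 161516 and 152915 RU in TFH, at 131929 and 143058 RU in Treg, and at 190146 and 203685 RU in TFR cells. It rose by 0.43 ± 0.094 in TFH cells with an adjusted p of 0.0183 and by 0.52 ± 0.094 in TFR cells with an adjusted p of 0.0136, without overlap of the groups. The second probe differed by 0.085 in TFH and by 0.25 in TFR cells. The third probe went the other way, from 923 and 1325 RU in naïve to 308 and 288 RU in TFH cells and from 1373 and 1237 RU in Treg to 282 and 395 RU in TFR cells, a difference of -1.89 and -1.97. With all 3 probes averaged, the gene was called lower in both cell types (-0.46 and -0.40). The direction for Psme2b therefore depends on the probe.

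**Figure D4:**
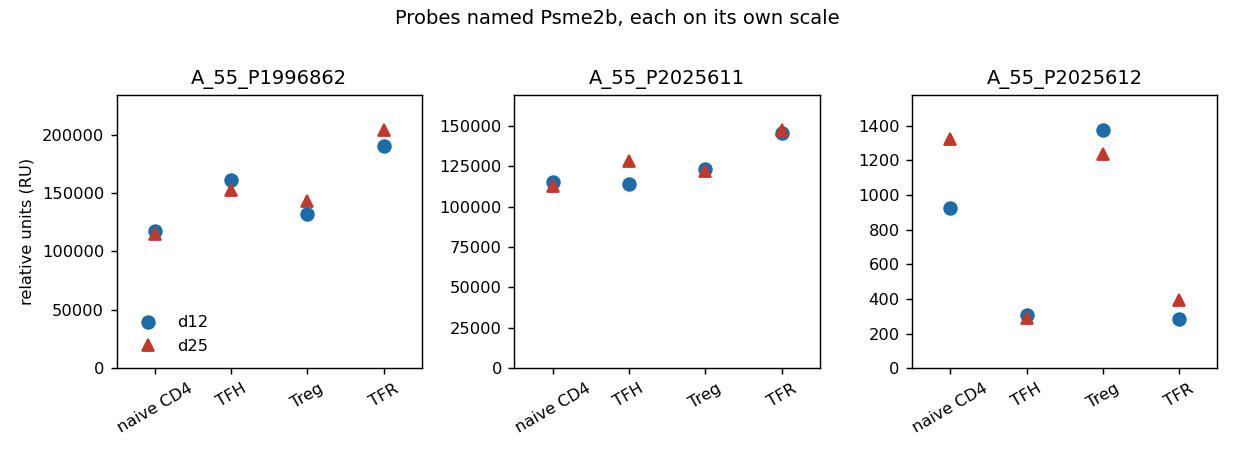
Normalised signal in RU (y axis, from 0, a separate scale for each probe) of the 3 probes named Psme2b on the arrays of d12 (circles) and d25 (triangles) for 4 cell types. The left probe rises from 114699 to 117827 RU in naïve to 152915 to 161516 RU in TFH cells, while the right probe is at 288 to 308 RU in TFH against 923 to 1325 RU in naïve cells.

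Of the 17 cap genes, 2 (11.8%) were called higher in TFH cells, against 20.9% of all genes. They were the ATPase Psmc2 (0.32) and Psmd7 (0.32), a non-ATPase partner of the deubiquitinase Psmd14. The median difference of the cap genes was 0.19, with 14 of 17 higher. Both calls were lost without quantile normalization, with no replicate block and with the slide as a block. That of Psmc2 was also lost with its probes averaged and with the authors' normalized intensities. Psmc5, an ATPase, had the largest difference of all members at 0.53 ± 0.18 (SE), with an adjusted p of 0.0674. The difference was 0.77 at d12 and 0.29 at d25. Psmd14, the subunit that removes ubiquitin from substrates, was measured lower in both follicular cell types (-0.28 and -0.34) and was not called in either. In TFR cells, 1 cap gene (5.88%) was called higher, against 18.7% of all genes. Psmd1, a large scaffold subunit, was at 10198 and 10609 RU in naïve cells at d12 and d25, at 11414 and 12398 RU in TFH, at 11112 and 11028 RU in Treg, and at 14410 and 13683 RU in TFR cells. The TFR arrays were the highest, and the difference from Treg cells was 0.34 ± 0.090 with an adjusted p of 0.0373. This call was lost without quantile normalization, with no replicate block, with the slide as a block and with TFR and Treg arrays alone. Its difference stayed between 0.278 and 0.408 over 20 alternatives. In TFH cells Psmd1 differed by 0.19 with an adjusted p of 0.138. The cap median in TFR cells was 0.071, with 12 of 17 genes higher.

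Among the assembly chaperones, which guide subunits into place and leave the finished particle, 3 of 7 were called higher in TFH and none in TFR cells. Of all genes, 20.9% and 18.7% were called higher. Psmd9, a chaperone of the ATPase ring, was at 4092 and 3203 RU in naïve, at 5315 and 4650 RU in TFH, at 3829 and 3960 RU in Treg, and at 4900 and 4410 RU in TFR cells. It showed the largest rise among the called genes in TFH cells, 0.46 ± 0.12 (SE) with an adjusted p of 0.0316. A second, dimmer probe of Psmd9 differed by -0.26, and with both probes averaged the gene was no longer called. Psmd10 (gankyrin) rose by 0.34 and Psmg3, a core chaperone, by 0.35. The calls of these 2 genes were lost without quantile normalization and with the slide as a block. Psmd5 and Psmg4 were measured lower in both cell types, Psmd5 by -0.30 and -0.42 and Psmg4 by -0.44 and -0.36, without a call.

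The largest change of a proteasome gene concerned an activator that works without ATP. Psme4 (PA200), which binds the ends of the core and is best known from spermatogenesis and histone turnover, was at 318 and 376 RU in naïve cells at d12 and d25, at 240 and 268 RU in TFH, at 365 and 470 RU in Treg, and at 142 and 274 RU in TFR cells. Both TFR arrays lay below both Treg arrays, and both TFH arrays below both naïve arrays. The difference was -1.07 ± 0.21 (SE) in TFR cells, a drop to 0.476-fold, with an adjusted p of 0.0173, and -0.45 ± 0.21 in TFH cells with an adjusted p of 0.144. At single days it was -1.36 and -0.78 in TFR cells. It was not called in TFR cells without either Treg array, with no replicate block for the day or without a filter on dim probes, and it was called in TFH cells without either TFR array. The difference between both changes was -0.62 (95% interval -1.40 to 0.15) with an adjusted p of 0.278, so that a larger drop in TFR cells was not shown. Psmf1 (PI31), which inhibits the core in vitro and helps to transport proteasomes, was at 3203 and 2890 RU in naïve, at 2698 and 2614 RU in TFH, at 3516 and 3366 RU in Treg, and at 2685 and 2671 RU in TFR cells. It fell by 0.36 (SE 0.084, adjusted p = 0.0267) in TFR cells and differed by -0.20 with an adjusted p of 0.115 in TFH cells. The TFR call was lost with no replicate block, with the slide as a block and with TFR and Treg arrays alone. Psme3 (PA28gamma), the nuclear activator, was at 6424 and 9064 RU in naïve, at 5584 and 9142 RU in TFH, at 7186 and 7316 RU in Treg, and at 6716 and 7419 RU in TFR cells. In naïve and TFH cells its arrays differed more by day than by cell type, with -0.095 ± 0.19 in TFH and -0.039 ± 0.19 in TFR cells.

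The course of the classes over the arrays is seen when each gene is centered on its own mean. The 14 core genes averaged -0.151 and -0.143 in naïve cells at d12 and d25, 0.064 and 0.162 in TFH, -0.051 and -0.047 in Treg, and 0.080 and 0.086 in TFR cells. All follicular arrays thus lay above all progenitor arrays. The 17 cap genes averaged -0.120 and -0.126 in naïve, -0.002 and 0.059 in TFH, 0.012 and 0.025 in Treg, and 0.080 and 0.073 in TFR cells. Here the naïve arrays stood below the others and the d12 TFH array was below both Treg arrays. The 5 immunoproteasome genes averaged -0.066 and -0.102 in naïve, -0.048 and -0.062 in TFH, 0.060 and 0.096 in Treg, and 0.048 and 0.074 in TFR cells. The position of TFR cells rests on Psme2b, the gene whose direction depends on the probe. The other 4 genes averaged 0.002 and -0.033 in naïve, -0.088 and -0.087 in TFH, 0.119 and 0.135 in Treg, and -0.028 and -0.020 in TFR cells, so that of the 3 other cell types only Treg cells lay above both naïve arrays.

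**Figure D5:**
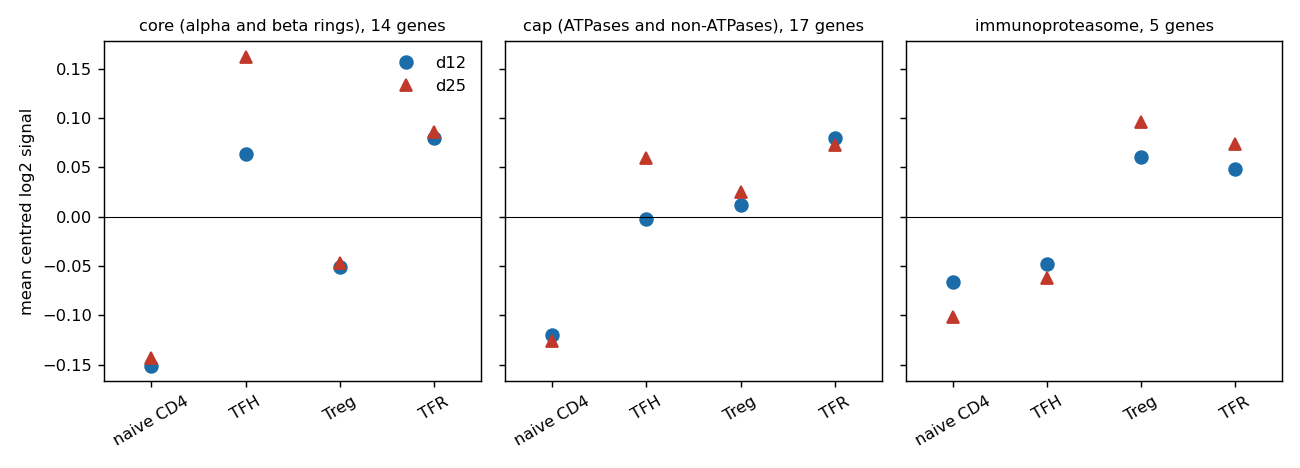
Mean log2 signal of the genes of a class after centering each gene on its own mean over 8 arrays (y axis), for d12 (circles) and d25 (triangles) in 4 cell types. Core genes are higher in TFH (0.064 and 0.162) and TFR cells (0.080 and 0.086) than in naïve and Treg cells, and the TFR points of the immunoproteasome (0.048 and 0.074) rest on Psme2b, without which they are at -0.028 and -0.020.

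The regulatory cell types were also set against the conventional ones. Between Treg and naïve cells limma called 0 of 46 genes, with 5 at an unadjusted p below 0.05, while the calls among all genes came to 9.88%, 5.89% higher and 3.98% lower. Of the 46 genes, 40 were measured higher in Treg cells, with a median of 0.11 against -0.015 for all genes. Without quantile normalization 25 of 46 were higher, with a median of 0.008. Psmb8 was among the 5, with a difference of 0.26 ± 0.081 (SE) and an adjusted p of 0.12. Between TFR and TFH cells limma called 0 of 46 genes, with 2 (Psme2b and Psmd1) at an unadjusted p below 0.05, and 22.1% of all genes, 11.6% higher and 10.5% lower. The median difference was 0.013. These contrasts cross slides at d25 and share their arrays with the follicular comparisons.

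The changes of TFH and TFR cells had the same sign for 38 of 46 proteasome genes (82.6%), compared with 80.1% of all genes tested. The comparisons share no array. The change was larger upward in TFH than in TFR cells for 37 of 46 genes, against 7865 of all 15764. The median of the difference was -0.123, and -0.007 without quantile normalization. A test of the difference for each gene called none, with 1 (Psma4) at an unadjusted p below 0.05, while the calls among all genes came to 8.49%, 4.03% higher and 4.46% lower. Between d25 and d12 none was called either, with 8 at an unadjusted p below 0.05 and 0.0698% of all genes called, 0.019% higher and 0.0507% lower. Day and slide cannot be told apart in that contrast.

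Among genes that act with the proteasome, Pomp, the chaperone that completes the core, was at 38263 and 37568 RU in naïve cells at d12 and d25, at 64421 and 52584 RU in TFH, at 47067 and 44235 RU in Treg, and at 65508 and 59998 RU in TFR cells. It rose by 0.62 ± 0.10 (SE) in TFH cells with an adjusted p of 0.00754 and by 0.46 ± 0.10 in TFR cells with an adjusted p of 0.0225. The TFR call was lost without quantile normalization, without a filter on dim probes and with no replicate block. The TFH call was lost with TFH and naïve arrays alone. Of 16 partners tested, 4 rose and 1 fell in TFH and 2 rose and 2 fell in TFR cells, none of them by 1 or more. Shfm1, the smallest cap subunit, whose name the rule does not match, rose by 0.70 and 0.34. It is named after its values were seen. Its call was lost in TFH cells without quantile normalization and with both cell types alone, and in TFR cells under 10 of 20 alternatives, with differences down to 0.18 and 0.23. Of 9 genes for ubiquitin and its activation, 5 rose in TFH cells and none fell, and 1 rose and 1 fell in TFR cells. The counts of these 9 genes and of the 16 partners are to be read against the background of 15764 genes. There, 20.9% rose and 25.6% fell in TFH cells, while 18.7% rose and 20.9% fell in TFR cells.

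Of the factors that control proteasome genes, Nfe2l1, which restores proteasome genes when the proteasome is inhibited, was between 179 and 278 RU on all 8 arrays, with differences of -0.030 in TFH and -0.14 in TFR cells. Of the 8 genes tested in this list, 2 rose and 3 fell in TFH and 1 rose and 4 fell in TFR cells. The shares of all genes that rose and fell were 20.9% and 25.6% in TFH and 18.7% and 20.9% in TFR cells. Mafg, a small Maf partner of Nfe2 factors, rose from 940 and 675 RU in naïve to 9630 and 6908 RU in TFH cells and from 1241 and 694 RU in Treg to 3488 and 2394 RU in TFR cells, a change of 3.36 and 1.64. Bach1, a repressor that competes for the same partners, fell in both follicular cell types (-0.58 in TFH and -1.45 in TFR cells on the log2 scale). Mafk also fell in both (-0.6 and -1.31).

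Promoters are shown for genes that rose together in TFH cells. RefSeq sequences of GRCm38.p6 were found for 39 of 46 genes and for Psme2, and not for Psmb1, Psmb2, Psmb7, Psmc3, Psmd3, Psmd7 and Psmg2. In windows of 300 bases, from 250 before to 50 after the start, the core of the antioxidant response element, TGACNNNGC, was searched on both strands. It was present in 6 of 43 windows (14.0%), those of Psmb5, Psmb6, Psmd9, Psmc6, Psmd12 and Psme4, and in 12.4% of all 32851 windows, so that its share was near the background. Capitals mark the match in the 250 bases before the start of the 3 genes among these that rose in TFH cells. The windows are chr14:54617996-54618245 on the minus strand for Psmb5, chr11:70525107-70525356 on the plus strand for Psmb6 and chr5:123227940-123228189 on the plus strand for Psmd9.
Psmb5: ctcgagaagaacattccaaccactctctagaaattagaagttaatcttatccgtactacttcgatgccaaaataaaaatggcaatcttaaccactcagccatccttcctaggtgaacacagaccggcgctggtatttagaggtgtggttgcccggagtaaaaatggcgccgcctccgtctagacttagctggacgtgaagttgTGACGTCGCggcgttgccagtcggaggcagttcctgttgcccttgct
Psmb6: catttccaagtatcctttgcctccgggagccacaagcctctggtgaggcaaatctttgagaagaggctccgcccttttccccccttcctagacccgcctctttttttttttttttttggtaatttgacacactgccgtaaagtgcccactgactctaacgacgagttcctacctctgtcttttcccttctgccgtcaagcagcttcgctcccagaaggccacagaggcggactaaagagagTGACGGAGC
Psmd9: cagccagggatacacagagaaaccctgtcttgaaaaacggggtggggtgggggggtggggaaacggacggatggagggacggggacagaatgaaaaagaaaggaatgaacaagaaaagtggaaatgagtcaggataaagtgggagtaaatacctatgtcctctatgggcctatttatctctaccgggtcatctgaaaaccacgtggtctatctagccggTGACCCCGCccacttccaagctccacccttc
Of the 12 genes called higher in TFH cells that have a window, these 3 hold the motif. A CCAAT box was present in 6 of the 12, in 30.2% of the member windows and in 37.4% of all windows.

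Of 14 genes tested for receptors and factors of the interferon response, which induces the immunoproteasome, 3 rose and 7 fell in TFH cells and 2 rose and 9 fell in TFR cells. Among all genes 20.9% rose and 25.6% fell in TFH cells, and 18.7% rose and 20.9% fell in TFR cells. Ifngr2, the signaling chain of the interferon gamma receptor, fell from 6638 and 7432 RU in naïve to 1118 and 1704 RU in TFH cells and from 6000 and 6176 RU in Treg to 1755 and 1617 RU in TFR cells. Its differences were -2.35 and -1.85. Ifngr1, the ligand-binding chain, fell by 1.08 and 1.33 on the log2 scale. Irf1, an inducer of Psmb9 and Tap1, was at 47007 and 55231 RU in naïve, at 30162 and 35322 RU in TFH, at 49842 and 64629 RU in Treg, and at 31527 and 38779 RU in TFR cells. It fell by 0.64 and 0.70 on the log2 scale. Irf7 fell by 1.00 on the log2 scale in TFH and by 0.72 in TFR cells. Jak2 (1.63 and 0.64) and Irf8 (1.69 and 0.85) rose in both. Among 10 genes of class I antigen processing, 3 rose and none fell in TFH, and 2 fell and none rose in TFR cells. The share of all genes was 20.9% for a rise in TFH and 20.9% for a fall in TFR cells. Tap1, a peptide transporter subunit whose start lies 226 bases from that of Psmb9 on the other strand, was at 6132 and 6194 RU in naïve, at 5164 and 4944 RU in TFH, at 7108 and 7989 RU in Treg, and at 5098 and 5326 RU in TFR cells. It differed by -0.29 in TFH cells with an adjusted p of 0.0596 and fell by 0.53 in TFR cells (adjusted p = 0.0126). The part of these genes in the changes of Psmb8, Psmb9 and Psmb10 was not tested.

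The promoters of Psmb10 and Psmb8 are shown for the interferon motifs. The interferon-stimulated response element, written as GAAA, any 2 bases and GAAA, was found on either strand in 5 of 43 member windows (11.6%), those of Psmb3, Psmd4, Psmd9, Psme1 and Psmg4, against 3.44% of all windows. TTCNNNGAA, the gamma-activated site, which reads the same on both strands, was found in 3 member windows (6.98%), those of Psmb8, Psmd2 and Psmg1, against 8.3% of all windows. In no member window did 2 different motifs overlap. The Psmb8 sequence is chr17:34197945-34198194 on the plus strand, with the match in capitals, and that of Psmb10 chr8:105938393-105938642 on the minus strand, which holds neither set of letters.
Psmb8: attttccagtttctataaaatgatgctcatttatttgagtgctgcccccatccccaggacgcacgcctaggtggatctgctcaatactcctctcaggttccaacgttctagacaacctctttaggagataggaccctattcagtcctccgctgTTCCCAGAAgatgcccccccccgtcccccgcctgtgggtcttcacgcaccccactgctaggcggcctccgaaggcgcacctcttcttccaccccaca
Psmb10: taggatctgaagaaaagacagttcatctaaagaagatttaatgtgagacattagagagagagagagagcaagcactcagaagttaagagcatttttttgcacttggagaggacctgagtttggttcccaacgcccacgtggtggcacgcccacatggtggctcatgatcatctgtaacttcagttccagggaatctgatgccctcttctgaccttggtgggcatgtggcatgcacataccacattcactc

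Psmc3ip, which the name rule caught but which is no proteasome gene, was at 493 and 388 RU in naïve, at 927 and 528 RU in TFH, at 488 and 436 RU in Treg, and at 1302 and 927 RU in TFR cells. It rose by 0.68 and 1.25, more than any proteasome gene, and is left out of all counts.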

How the data were processed

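RNA of 4 cell types at d12 and d25 was measured on 8 one-color arrays. The authors extracted background-corrected spot intensities with Agilent Feature Extraction 10.7.3.1 per the labels, and deposited them with a table of normalized intensities. Their steps were rerun here: spots with flags, outside an interquartile range or with a pixel coefficient of variation above 0.5 were excluded, spots of a probe averaged geometrically, arrays quantile normalized and scaled to a 75th percentile of 1500, with a floor of 20. Of the spots, 86.45% to 89.18% remained, and 18261 to 19867 of 39429 probes were well above background. No spot was saturated. The number of arrays limits the precision.

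For each gene the probe of highest mean log2 signal was used. Genes entered the test when most kept spots of that probe were above background at d12 and d25 of at least 1 cell type, which left 15764 genes. Differences of log2 values were fitted with limma 3.58.1 in R 4.3.3 with cell type and day as terms, 3 residual degrees of freedom and Benjamini-Hochberg adjustment over all genes. The methods' ANOVA with Tukey's test was not used, since it needs replicates per cell type and day. Day served as the block for arrays of the same number. Their deviations correlated between cell types with r of 0.284 to 0.510. The fit was tested on simulated data.

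Values per array are given for the inducible subunits, PA28 genes, their counterparts, the other activators, the inhibitor and, per contrast, the 3 members that rose and the 3 that fell most among those called. The other members are given by class. Members, lists and tests were chosen with earlier results of these data known. Positions of probes are those of the files in NCBI37. Promoters are from RefSeq in GRCm38.p6, a different build, so that exons or UTRs were not assigned to probes. Besides the lists described, marker lists of antibody-secreting and myeloid cells were computed. Their summed levels were 3270 to 10831 and 69557 to 113167 RU per array.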

Additional observations from a re-analysis of the deposited data

Results flagged for a closer look

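No proteasome gene was called in the limma test of the difference between the TFH and TFR changes. Of the pathway genes, 4 were, at an adjusted p below 0.05, while 8.49% of all genes tested were called. The 4 were 2 of 8 genes for control of proteasome genes, 1 of 14 of the interferon response and 1 of 10 of class I processing. None of the 16 partners or of the 9 ubiquitin genes was called. The TFR change (against Treg) less the TFH change (against naïve) was -1.72 for Mafg (3.36 in TFH, 1.64 in TFR, adjusted p = 0.0107), -0.99 for Jak2 (1.63 and 0.64, adjusted p = 0.0224), -0.87 for Bach1 (-0.58 and -1.45, adjusted p = 0.0316), and -0.64 for Tap2 (0.23 and -0.41, adjusted p = 0.0344). Mafg and Jak2 rose in both cell types. Bach1 fell in both. Tap2, the partner of Tap1 in peptide transport, was at 42572 and 44353 RU in naïve, at 50491 and 51528 RU in TFH, at 50491 and 52404 RU in Treg, and at 38160 and 39088 RU in TFR cells. Both TFR arrays were the lowest. With the slide as a block the call held for Mafg (adjusted p = 0.029) and was lost for Jak2 (0.0624), Bach1 (0.0574) and Tap2 (0.0848), and with no replicate block it was lost for all 4. Of 19 alternatives, the call was lost in 5 for Mafg, 10 for Jak2, 11 for Bach1 and 11 for Tap2, most of them fits that left out 1 array, while the sign held in all. The summed level of proliferation genes was highest in TFR cells, and its part was not tested.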

How the results depend on the processing

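The main counts were 13 genes higher and 1 lower in TFH versus naïve cells and 2 and 3 in TFR versus Treg cells. Leaving out 1 array at a time gave 0 to 9 higher and 0 to 2 lower in TFH, and 0 to 3 higher and 0 to 6 lower in TFR cells. It gave 0 to 0 higher and 0 to 1 lower in TFR versus TFH cells and 0 to 0 in the other contrasts. The array left alone in its cell type was then assumed to vary like the others. No call in TFH cells was left without either naïve array, and none in TFR cells without either Treg array. Counts of TFH cells, higher and lower, were 2 and 3 without quantile normalization, 20 and 2 with an intensity trend and robust prior, 0 and 0 with the 4 arrays of both cell types alone, and 0 and 0 when a difference of 0.5 was also required. With the slide in place of the day, 6 were higher. The lower count was 2 with all probes averaged and 2 with genes above background on all 8 arrays. Counts of TFR cells were 0 higher without quantile normalization, 4 higher with normexp, 4 with genes above background on all 8 arrays, 6 without a filter on dim probes, 1 with the slide, 11 with the trend and robust prior, 1 and 1 with 4 arrays, and 1 and 1 with a difference of at least 0.5. Normexp called 1 gene higher in TFR versus TFH cells and 1 lower at d25. The trend and robust prior called 1 higher in TFR versus TFH, 2 higher in Treg versus naïve and 2 lower at d25 versus d12, and the filter for all 8 arrays 1 lower at d25.

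Day was the replicate block that pairs the arrays. With no replicate block, 6 genes were higher in TFH and 1 higher and 1 lower in TFR cells. The other calls of these contrasts were unaltered in number.

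Psme2b reversed with all probes averaged, to -0.458 in TFH and -0.398 in TFR cells. No other named gene that was called reversed. The cause of these shifts was not tested. The share called of all genes also depended on these choices. Without a filter it was 17.8% in TFH versus naïve, 12.9% in TFR versus Treg, 5.51% in TFR versus TFH and 2.35% in Treg versus naïve cells, against 46.5%, 39.6%, 22.1% and 9.88%. With 4 arrays it was 20.1% in TFH versus naïve, 10.4% in TFR versus TFH and 0% in Treg versus naïve cells. With no replicate block it was 14.0% in TFR versus TFH and 6.34% in Treg versus naïve cells, and with the slide 8.56% and 3.32%. For the difference of both changes it was 8.49%, and 1.4% without a filter, 5.12% with no replicate block and 4.38% with the slide. All 46 genes were above background on 8 arrays. The dimmest, Psme4, was at 142 to 470 RU, and whether its low signal limited the estimate was not tested.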
